A study of Rattus norvegicus with 15 samples.

Results

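Islets of 4 Lewis rats with a blood glucose only moderately above normal after partial pancreatectomy (Px) were compared with islets of 5 sham-operated rats (Sham), 9 of the 15 libraries of the series. The 9 libraries were taken by surgery and by the glucose in each sample title, and not by any measured RNA: 152, 155, 157 and 211 in the Px rats numbered 4, 8, 10 and 11, called mild Px below, and 88 to 96 in the Sham rats numbered 23 to 27. In Px rats 90% of the pancreas had been removed, and all 15 rats were followed for 10 weeks after surgery, so that every Px group shares the operation and every Sham rat its sham version. The labels describe all rats as Lewis, a single inbred strain, at an age of 4 to 5 weeks, without saying whether that age refers to surgery. They give glucose without a unit, and no treatment other than surgery. A mark in every title ("Inc_YES") has no explanation in them. The remaining Px rats served for reference only: 3 with a glucose of 104 to 132 (near-normal Px) and 3 with 416 to 464 (severe Px). Each library was taken as 1 rat, from the numbering of the titles alone. If libraries were not separate animals, the p-values measure only the spread between these samples.

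Beta cells of the islet take up glucose, burn it, close their ATP-sensitive potassium channels and release insulin from dense granules. A set of transcription factors keeps this program on and keeps a group of otherwise common genes, the so-called disallowed genes, silent. After removal of most of the pancreas the remaining beta cells work against a raised demand, and in this rat model a chronically raised glucose is known to be accompanied by a loss of beta cell identity genes.

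Poly(A) RNA was read to 19108091 to 30589667 counts per library in mild Px and 12205650 to 18428397 in Sham, and every mild library was deeper than every Sham library (exact two-sided permutation test, p = 0.00794, the smallest that 126 splits can give). The libraries also carried different amounts of non-islet RNA. Markers of acinar cells, the enzyme-secreting cells of the exocrine pancreas, made up 22.7 to 34.1% of all counts in mild Px and 1.16 to 16.4% in Sham. Islet hormone genes made up 4.75 to 8.70% and 11.6 to 25.01%. Hormones, granule proteins and the alpha cell markers were read in all 9 libraries, as the islet label requires. Of the 15 delta and PP cell markers, 2 or 3 had no read in each library. In shares of all counts, every gain of one cell type's RNA lowers what is left for the others. Levels are CPM, counts scaled to normalised library sizes, and do not sum to a fixed total. In bulk RNA, fewer cells of a type and less RNA per cell cannot be told apart.

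A further split did not follow the groups. In 7 libraries (mild Px 4, 8, 10 and 11, near-normal Px 2, Sham 23 and 24) Snhg11, a host of small nucleolar RNAs, stood at 78.1 to 165 CPM, and in the other 8 at 21.9 to 36.4 CPM. Leng8 stood at 106 to 166 and 39.1 to 55.8 CPM in the same libraries. Pnisr, Pnn and Srsf5, which like Leng8 belong to RNA processing, divided them the same way. These are called the first and the second library set. They were found after seeing the data, and the labels name no batch. With the 4 groups of surgery and glucose in the model, 923 of 15661 genes were higher and 569 lower in the first set (edgeR quasi-likelihood test, Benjamini-Hochberg adjusted p under 0.05). The sets were cut from these same counts, so some genes differ by construction. These numbers therefore do not test whether a batch exists. All 4 mild libraries lie in the first set and all 3 severe libraries in the second, while Sham divides into 2 and 3. Results against Sham are therefore given with all 5 Sham libraries and, where it matters, with the 2 Sham libraries of the first set only.

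**Figure D1:**
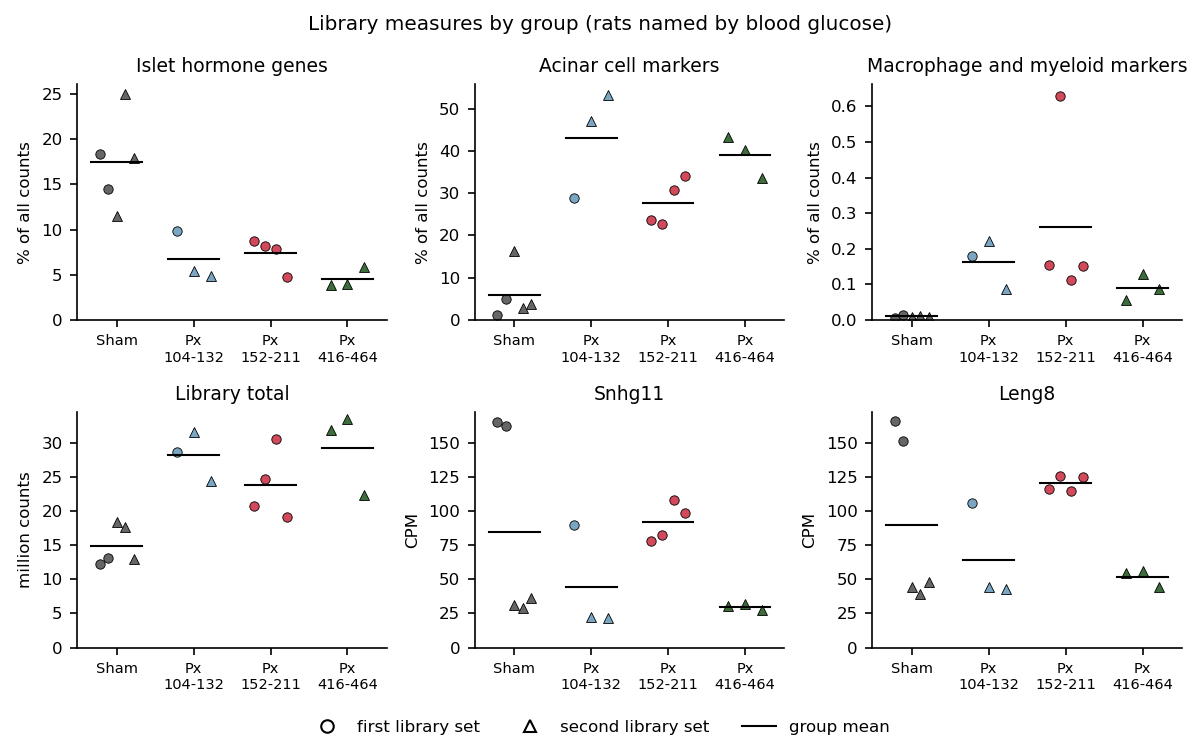
Each point is 1 library and each line a group mean; the upper panels give shares of all counts (%), the lower panels the library total (counts, in the multiple its axis names) and the levels of Snhg11 and Leng8 (CPM), by group. Circles are the first library set and triangles the second: the 4 mild Px libraries (glucose 152 to 211) are all circles, with 22.7 to 34.1% acinar marker counts, and the Sham libraries divide into 2 circles above 150 CPM of Leng8 and 3 triangles at 39.1 to 47.8 CPM.

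Mild Px and Sham islets differed in 8357 of 14715 genes tested, 56.8% of all: 4312 were higher in mild Px (29.3%) and 4045 lower (27.5%). In 3640 genes (24.7%) every mild library lay above every Sham library, and in 3431 (23.3%) every mild library lay below. Among changes of at least 2-fold (an absolute log2 fold change of 1), 2941 rises stood against 696 falls. The gene lists are read against these shares, and the median log2 fold change of all genes was -0.01. With the first library set alone (4 mild Px against 2 Sham), 3802 genes were higher and 3060 lower. Of the 8357 genes, 8350 were tested there and all 8350 kept their direction, with 5930 passing the test again. With the set as a covariate over the 9 libraries, 6730 of the 8357 passed in the same direction. The balance of rises and falls rests on the scaling. Scaling by 8 endocrine granule genes instead of TMM sets the summed level of these 8 genes equal in all libraries. It sets endocrine RNA equal only if these genes kept their share of it, which was not tested. This scaling moved the median of all genes to 0.66 and gave 8435 higher and 512 lower. Scaling by library totals alone moved the median to -0.34 and gave 3040 higher and 6279 lower. List counts under either scaling are read against these counts, out of the same 14715 genes. Of the genes named as lower, Pklr, Dnmt3a, Bhlhe41, Kit, Il1r1, Keap1, Pdhb, Men1 and Dll1 had the opposite sign under scaling by granule genes. The medians of the alpha cell, delta and PP cell, citrate cycle, nuclear respiratory chain and hypoxia lists turned negative under library totals. Counts of list members cover those that passed the filter on low counts, and a member that passed only through Px libraries where it was high had to differ. Lists with many members too low to test were those of lymphocytes (8 tested of 18 in the count table), Schwann cells and glia (8 of 13), erythroid, mast cells and adipocytes (7 of 13), progenitor genes (14 of 20) and inflammatory signalling (20 of 25), and their counts describe the tested genes alone.

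**Figure D2:**
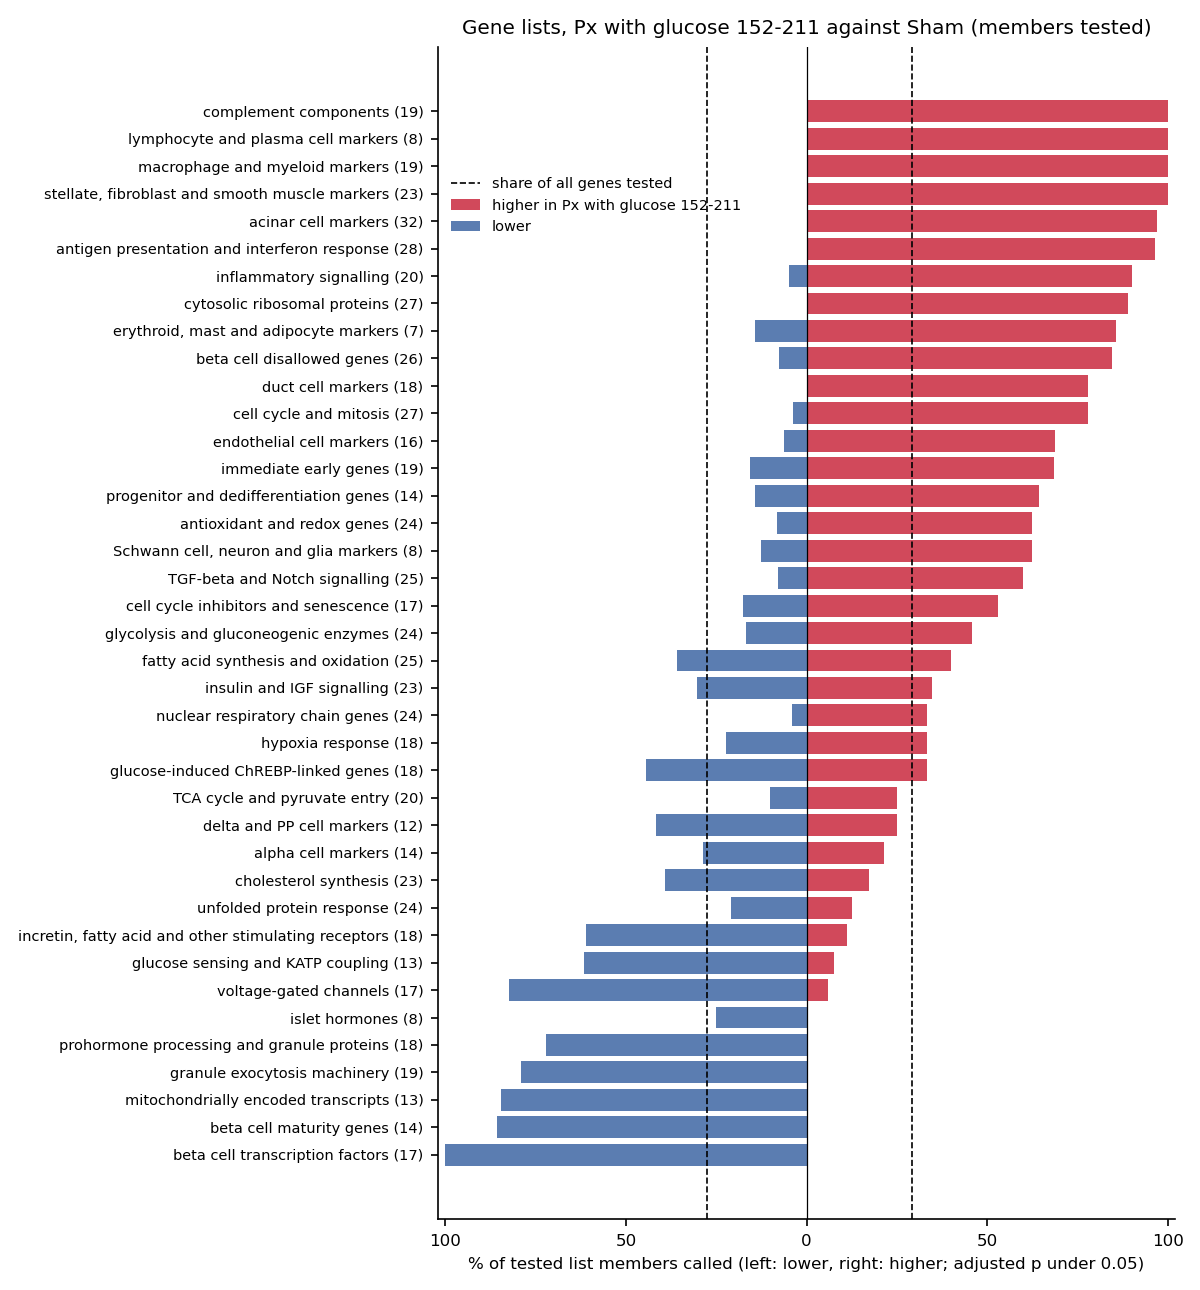
For each of 39 gene lists the bars give the share of tested members (number in brackets) that were higher (right, red) or lower (left, blue) in mild Px than in Sham at an adjusted p under 0.05; the dashed lines mark the same share over all 14715 genes, 29.3% higher and 27.5% lower. Beta cell transcription factors reach 100% on the left, and the fibroblast and complement lists, of which every member in the count table was tested, reach 100% on the right; in lists with members too low to test, such as that of lymphocytes, the bars describe the tested genes alone.

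All 17 beta cell transcription factors tested were lower in mild Px, with a median log2 fold change of -1.12, and for all 17 the mild and Sham libraries did not overlap. The gene for Nkx6-1, which keeps beta cells distinct from other islet cells (chromosome 14, 9555264 to 9562189, plus strand, positions of the count table, for which no source used here names a build), was read at 77.2, 60.9, 86.4 and 75.5 CPM in mild Px and at 224, 203, 210, 247 and 265 CPM in Sham. Every mild library held less than any Sham library, by a log2 fold change of -1.61 ± 0.13 (SE, n = 4 and 5, edgeR adjusted p = 6.98e-06). Pdx1, the regulator of insulin gene transcription, stood at 19.5, 16.3, 18.2 and 15.5 CPM against 37.4, 38.4, 35.2, 40.8 and 39.3 CPM. Its groups were narrow and far apart (-1.14 ± 0.10, adjusted p = 1.06e-05). Mafa, a factor of the mature beta cell, stood at 21.8, 27.3, 28.8 and 30.3 CPM against 60.1 and 38.8 CPM in Sham 23 and 24 and 63.4, 103 and 105 CPM in Sham 25, 26 and 27. The mild libraries were all lower, but the 2 Sham libraries of the first set were the lowest of the 5. The log2 fold change of Mafa was -1.45 ± 0.26 (adjusted p = 0.0007) against all Sham libraries and -0.88 (adjusted p = 0.0133) within the first set. Nkx2-2 (-1.51 ± 0.17) and Foxo1 (-1.11 ± 0.10), a target of insulin signalling that moves into the nucleus under metabolic stress, fell to a similar extent, and Neurod1 fell by 0.80 on the log2 scale. The share of acinar marker counts moved with these falls and its part in them was not tested. Within the first set 15 of the 17 passed, and under scaling by granule genes 10 of 17 were lower and none was higher.

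Of 13 genes that let the beta cell read glucose, 8 were lower and 1 higher. Slc2a2, the glucose transporter of the rat beta cell, was read at 1050, 629, 840 and 783 CPM in mild Px and at 1750, 1700, 1710, 1780 and 2100 CPM in Sham. No mild library reached the lowest Sham library (log2 fold change -1.13 ± 0.18, adjusted p = 0.0003). Kcnj11 and Abcc8, the pore and the regulatory subunit of the ATP-sensitive potassium channel, fell by 0.97 and 0.75 on the log2 scale, and Gpd2, the mitochondrial arm of the glycerol phosphate shuttle, by 1.03. The member that was higher was Trpm2, a cation channel also found in phagocytes, at 32.7 CPM in mild Px 8 and 4.88 to 7.43 CPM in the other mild libraries, against 2.14 to 3.14 CPM in Sham. Its call was lost within the first set (log2 fold change 2.20, adjusted p = 0.0759). Under scaling by granule genes the list divided into 3 higher and 3 lower.

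Of 18 receptors and signalling genes that stimulate or restrain secretion, 11 were lower and 2 higher. Glp1r, the receptor of the incretin hormone GLP-1, stood at 89.8, 58.7, 83.6 and 76.3 CPM in mild Px and at 231, 207, 227, 220 and 252 CPM in Sham. The Sham libraries lay together and the mild libraries lay together, far below them (-1.56 ± 0.13, adjusted p = 9.42e-06). Gipr, the receptor of the other incretin, followed the library sets instead. It stood at 140, 108, 132 and 134 CPM in mild Px, at 335 and 285 CPM in Sham 23 and 24, and at 92.4, 90.6 and 99.5 CPM in Sham 25, 26 and 27. Against all Sham libraries its log2 fold change was -0.51 ± 0.42 (adjusted p = 0.319), and within the first set it was -1.28 ± 0.15 (adjusted p = 0.0025). P2ry1, a receptor for extracellular nucleotides, fell by 1.71 on the log2 scale, and the calcium-sensing receptor gene Casr by 1.90. Adcy5, an adenylyl cyclase, and Npy1r, a neuropeptide Y receptor, rose by 1.32 and 1.72.

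**Figure D3:**
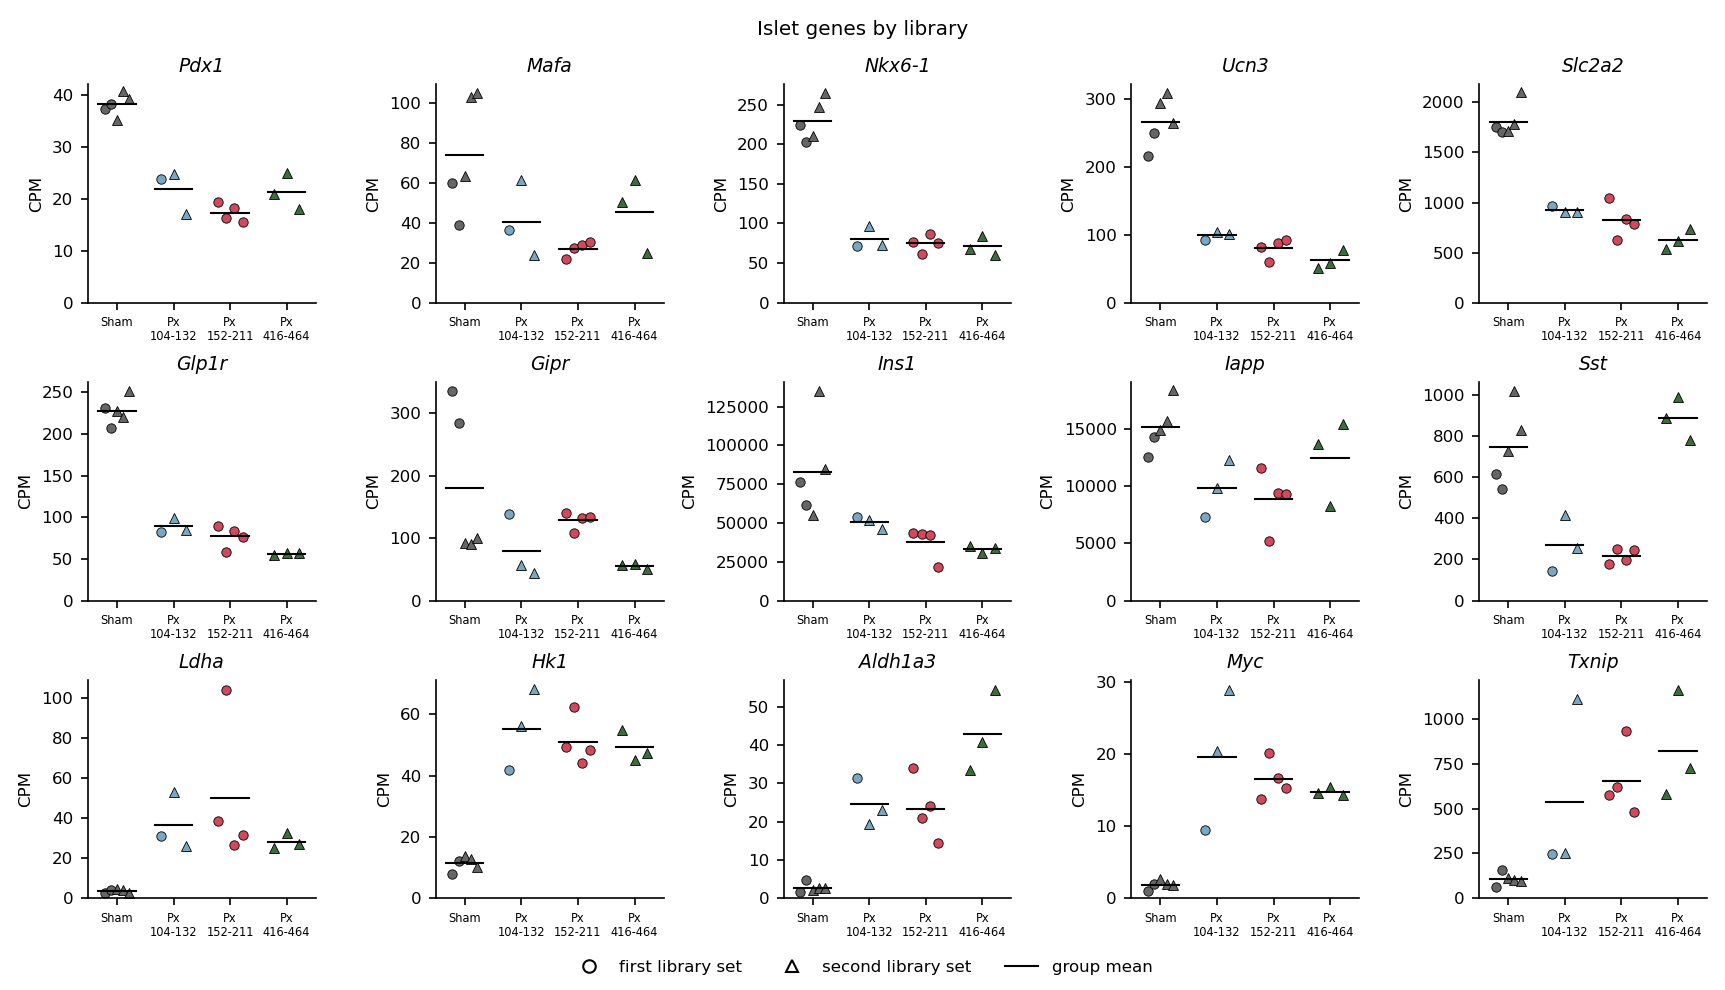
Each panel gives the CPM of 1 gene in every library (points) with the group mean (line), for Sham, near-normal Px (104 to 132), mild Px (152 to 211) and severe Px (416 to 464); circles are the first library set and triangles the second. In Nkx6-1, Pdx1, Ucn3, Slc2a2 and Glp1r the mild libraries lie below all Sham libraries of either set, in Hk1, Ldha, Aldh1a3, Myc and Txnip above them, and in Gipr the 2 Sham circles stand apart from the 3 Sham triangles.

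Downstream of glucose sensing, 14 of 17 genes in the list of voltage-gated channels and 15 of 19 genes of the exocytosis machinery were lower. The channel list also holds Kcnk3, a background channel that is not voltage-gated. The potassium channel genes Kcnk3 and Kcnh2, which help to set the resting and firing state of the membrane, fell by 1.04 and 1.08 on the log2 scale. Kcnq1 was the channel gene that was higher, at 22.1 to 50.4 CPM in mild Px and 0.90 to 13.5 CPM in Sham. Rims2, a scaffold that positions granules at calcium channels, fell by 1.12, and Cplx2, a complexin that clamps the fusion machinery, was among the 12 largest falls of genes with a mean of at least 5 CPM. Cplx2 stood at 49.2, 28.0, 42.3 and 37.8 CPM in mild Px against 221, 175, 244, 230 and 287 CPM in Sham. No mild library came near the Sham range (-2.55 ± 0.19, adjusted p = 4.62e-06). Within the first set 12 of 17 channel genes and 14 of 19 exocytosis genes were lower. Under scaling by granule genes 4 channel and 8 exocytosis genes were lower, and 2 of each list were higher.

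Of 18 genes for prohormone processing and granule proteins, 13 were lower. Within the first set 3 of 18 passed, with a median of -0.44 against -0.63 over all Sham libraries. Slc30a8, the zinc transporter of the insulin granule, held its fall in both (-1.16 ± 0.19 and -1.11). Pcsk1n, an inhibitor of prohormone convertase, stood at 8.04, 8.74, 10.7 and 7.16 CPM against 24.2, 13.5, 20.3, 36.9 and 29.2 CPM, below every Sham library. Under scaling by granule genes, which uses members of this list, its median was 0.01, with 5 higher and 2 lower. Of 14 beta cell maturity genes tested, 12 were lower, a list that shares Mafa, Slc2a2, Glp1r, Slc30a8, Syt4, Ero1b and Prlr with the others. Ucn3, the peptide that beta cells release to stimulate delta cells, was read at 82.6, 59.6, 88.4 and 92.9 CPM in mild Px and at 216, 250, 295, 309 and 265 CPM in Sham. The groups lay far apart (-1.72 ± 0.15, adjusted p = 1.13e-05).

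Of 8 hormone genes 2 passed the test, Iapp and Sst, both lower, near the 27.5% of all genes that were lower. This count rests on the scaling: 2 were higher and 1 lower under scaling by granule genes, and 4 were lower under library totals or when acinar genes were left out of TMM. Ins1 stood at 43500, 42900, 42300 and 21800 CPM in mild Px and at 76600, 61300, 55300, 135000 and 84500 CPM in Sham. All mild libraries were below all Sham libraries, yet the Sham libraries spread widely and the log2 fold change of -1.13 ± 0.45 missed the threshold (adjusted p = 0.051; -0.89, adjusted p = 0.236 within the first set). Ins2 overlapped, with 11200, 14100, 14600 and 5880 CPM against 21600, 13500, 14100, 36300 and 21800 CPM (-0.91 ± 0.41, adjusted p = 0.077). Rat 11, with the highest glucose of the mild group (211), had the lowest Ins1 and Ins2 of the 15 libraries. It also had the highest Gcg level of the mild group, 11700 CPM against 3600, 5800 and 8120 CPM in rats 4, 8 and 10. Gcg, the glucagon gene, did not pass (-0.03 ± 0.34, adjusted p = 0.953), and its sign changed with the library left out or the library set. Iapp, the amyloid peptide gene of beta cells, fell by 0.77 on the log2 scale (adjusted p = 0.0482) and lost its call within the first set (-0.60, adjusted p = 0.267). Ppy, the pancreatic polypeptide gene, stood at 625 to 1440 CPM against 435 to 1190 CPM and did not pass.

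Somatostatin showed the largest fall among the hormones. Sst, the product of delta cells that restrains insulin and glucagon release (chromosome 11, 80358211 to 80359444, plus strand, count table positions), stood at 177, 249, 197 and 245 CPM in mild Px against 617, 544, 731, 1020 and 831 CPM in Sham. The groups did not overlap (-1.79 ± 0.20, adjusted p = 3.18e-05; -1.43, adjusted p = 0.0028 within the first set). Of 12 delta and PP cell markers 5 were lower and 3 higher, the rises near the 29.3% of all genes. Under scaling by granule genes 2 were lower and 6 higher. Casr fell and Tspan8, a tetraspanin also made by duct and acinar cells, rose by 2.93. Lepr, the leptin receptor, stood at 0.66 to 1.20 CPM against 0.17 to 0.37 CPM and was called higher. At these levels it passed the filter on low counts mainly through the mild libraries, where it was high. Of 14 alpha cell markers 4 were lower and 3 higher, beside 27.5% and 29.3% of all genes, so that these counts are not read as a result about alpha cells. Under scaling by granule genes 1 was lower and 7 higher. Slc7a2, a transporter of basic amino acids, fell by 1.33, and Dpp4, which degrades incretins, rose by 2.30. Loxl4, a lysyl oxidase, was higher at 3.45 to 4.53 CPM against 0.11 to 0.35 CPM.

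Of 26 disallowed genes 22 were higher, with a median log2 fold change of 2.22, and 2 were lower. Ldha, which turns pyruvate into lactate, stood at 38.7, 104, 26.7 and 31.6 CPM in mild Px and at 2.70, 4.10, 4.56, 4.19 and 2.76 CPM in Sham. Mild Px 8 was the highest, and the other 3 also lay far above Sham (3.76 ± 0.39, adjusted p = 2.42e-05). Hk1, a hexokinase with a high affinity for glucose, stood at 49.3, 62.2, 44.0 and 48.2 CPM against 8.03, 12.1, 13.8, 12.8 and 10.3 CPM, with no overlap (2.16 ± 0.15, adjusted p = 4.34e-06). Slc16a1, a carrier of lactate and pyruvate, rose by 2.91, from 0.58 to 1.45 CPM in Sham to 6.38 to 11.9 CPM. Hk2, a further hexokinase, stood at 22.4, 56.3, 10.6 and 25.3 CPM against 0.42 to 1.76 CPM, so that its rise of 4.79 on the log2 scale rests on few reads in Sham. The RNA-binding protein gene Zfp36l1 rose by 2.44 and the transcriptional adaptor gene Lmo4 by 1.74. Arap2 and Dnmt3a, a DNA methyltransferase, were the 2 lower members (-0.69 and -0.40). These genes are by definition active in other tissues, and the shares of acinar, fibroblast and macrophage markers moved with them. Their part in the result was not tested. Without mild Px 8, which held the most macrophage RNA, 22 of 26 were again higher and 1 lower.

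Genes of progenitors and of dedifferentiated beta cells rose in 9 of 14 cases tested, of 20 in the count table, and fell in 2. Aldh1a3, a retinaldehyde dehydrogenase used as a mark of failing beta cells, stood at 34.1, 20.9, 24.1 and 14.4 CPM in mild Px and at 1.69, 4.66, 2.06, 2.72 and 2.76 CPM in Sham. Its lowest mild value belonged to rat 11, the rat with the highest glucose of the 4, and the groups did not overlap (3.08 ± 0.31, adjusted p = 1.9e-05). Myc, the growth-promoting transcription factor, stood at 13.8, 20.2, 16.7 and 15.3 CPM against 1.06 to 2.72 CPM (3.10 ± 0.21, adjusted p = 4.14e-06). Tnfrsf11b, osteoprotegerin, was lower (-1.13 ± 0.18). Fev, a serotonergic factor of endocrine progenitors, was lower against all Sham libraries (-0.79, adjusted p = 0.0097) but not within the first set (-0.44, adjusted p = 0.196).

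A list of genes linked to glucose and to ChREBP, a transcription factor that binds paired E-box-like motifs, had 6 of 18 tested members higher and 8 lower. Its median was -0.10. Not every member is an established target of ChREBP, and the list includes Mlx and the ChREBP gene Mlxipl, which was not tested. The share higher is near that of all genes, and under scaling by granule genes 10 were higher and none lower (median 0.58). Under that scaling 8435 of all 14715 genes were higher, with a median of 0.66. Txnip, an inhibitor of thioredoxin and a well-known glucose-induced gene of beta cells (chromosome 2, 198683159 to 198686974, plus strand, count table positions), stood at 575, 621, 931 and 479 CPM in mild Px and at 62.7, 155, 111, 99.2 and 98.6 CPM in Sham. The groups were far apart (2.63 ± 0.26, adjusted p = 1.64e-05; 2.57 within the first set). Pklr, the pyruvate kinase gene of liver and beta cell, went the other way, with 55.8, 52.5, 74.7 and 64.9 CPM against 115, 97.8, 73.3, 91.2 and 66.5 CPM. Its ranges overlapped (-0.52 ± 0.18, adjusted p = 0.0281; -0.79, adjusted p = 0.0093 within the first set). The transcriptional repressors Bhlhe40 and Bhlhe41, close relatives, moved apart: Bhlhe40 rose by 2.16 and Bhlhe41 fell by 0.66, and under scaling by granule genes Pklr and Bhlhe41 changed sign (0.10, adjusted p = 0.699 and 0.01, adjusted p = 0.938). Dnajb9, a chaperone of the endoplasmic reticulum, fell by 0.94.

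Promoter stretches of Pklr, Bhlhe40 and Bhlhe41 are shown because Bhlhe40 and Bhlhe41 hold an E-box and Pklr a carbohydrate response element, while Bhlhe40 was higher and the other two lower. The stretches are 60 bases long, from RefSeq's GRCr8 promoter table (250 bases before to 50 after each start), 5′ to 3′ on the gene's strand, with the motif in capitals.
Pklr: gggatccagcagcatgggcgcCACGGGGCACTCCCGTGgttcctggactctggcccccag
Bhlhe40: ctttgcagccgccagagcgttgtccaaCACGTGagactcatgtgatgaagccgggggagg
Bhlhe41: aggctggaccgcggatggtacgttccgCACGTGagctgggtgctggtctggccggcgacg
They lie at chr2:176841075-176841134 (plus strand), chr4:143174203-143174262 (plus strand) and chr4:180569371-180569430 (minus strand) of GRCr8, and their motifs begin 168, 220 and 48 bases before the start. The motif searched in Pklr was the carbohydrate response element, a pair of E-box-like stretches 5 bases apart that may each miss a letter, and in the others CACGTG. Both motifs read the same on either strand, and each was counted on its own. The paired motif stands in 11 of 33469 promoters of the table (0.0329%) and CACGTG in 2148 (6.42%). Of 21 listed genes 15 had an entry, and 9 of these held either motif: 3 of the 9 were higher, 4 lower, 1 did not pass and 1 was not tested. A match describes letters in this window and is not a measured binding site.

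Of the 12 largest falls among genes with a mean of at least 5 CPM, Cplx2 is given with the exocytosis genes. Cabp7, a calcium-binding protein of the Golgi (chromosome 14, 84968130 to 84978255, count table positions), stood at 7.93, 3.72, 5.10 and 3.17 CPM in mild Px against 52.4, 46.0, 49.0, 52.3 and 55.1 CPM in Sham. The Sham values were tight and the mild values all far below (-3.35 ± 0.24, adjusted p = 4.42e-06; -3.31 within the first set). Nell1, which is secreted and resembles growth factors, and Syt12, a synaptotagmin, fell by 2.96 and 2.86. Cntn3 (a contactin), Unc5c (a netrin receptor), Mmd2, Btbd17, Lingo3, Anks1b and Reep6 fell by 2.07 to 2.63. Nnat, neuronatin, which assists signal peptide cleavage in beta cells, stood at 18.8 CPM in mild Px 4 and 5.68 to 8.33 CPM in the other mild libraries against 37.5 to 45.9 CPM in Sham (-2.04 ± 0.30). For all 12 the fall passed within the first set, with log2 fold changes of -1.85 to -3.31.

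The 12 largest rises were all highest in mild Px 8. Acod1, which makes itaconate in activated macrophages, stood at 22.3, 66.8, 1.01 and 19.6 CPM in mild Px and was read in 1 of the 5 Sham libraries (0.05 CPM). Mmp12, the macrophage elastase, stood at 46.8, 367, 34.9 and 50.9 CPM against 0.37 to 1.90 CPM. Mild Px 8 held several times more of it than its group, and the other 3 still exceeded every Sham library. Ccl22 and Ccl9 are chemokines, Mmp9 is a gelatinase, Cst7 a cystatin of leukocytes, Lyc2 a lysozyme, Ubd a ubiquitin-like modifier induced by interferon, Fcgr2b an inhibitory antibody receptor, Bcl2a1 a survival factor, Col6a5 a collagen and Hk3 a hexokinase of leukocytes. Their Sham levels rest on few reads, up to 0.51 CPM in these 10 genes, so that no fold is given. The spread within mild Px was wide: Ccl22 ran from 0.54 to 70.3 CPM, Mmp9 from 3.84 to 113 CPM and Col6a5 from 1.98 to 77.3 CPM. With Acod1, Lyc2 and Slamf6, a receptor of lymphocytes (0.76 to 39.2 CPM), they were the genes of largest spread in the group.

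Of 23 macrophage and myeloid markers listed 21 are in the count table and 19 passed the filter on low counts. These 19 were higher, and the summed share of the list was 0.113 to 0.630% of counts against 0.00635 to 0.0145% in Sham, with mild Px 8 at the top. Fcer1g, the shared signalling chain of antibody receptors, stood at 97.3, 170, 63.0 and 73.7 CPM against 4.60 to 10.2 CPM (3.98 ± 0.32), and Adgre1, a macrophage surface receptor, at 9.29 to 22.1 against 0.90 to 1.52 CPM. Of 21 lymphocyte and plasma cell markers listed 18 are in the count table and 8 passed the filter, some only through Px libraries, so that no count of calls is read from them. The summed level of the 18 was 56.65 to 235 CPM in mild Px, with mild Px 8 at the top, and 9.14 to 15.97 CPM in Sham, where 4 to 8 of them were at 0. Cd4 stood at 121 CPM in mild Px 8 and 39.2 to 50.6 CPM in the others against 6.61 to 12.7 CPM. This 1 gene carried most of the sum: by group mean, 63.1 of 105.4 CPM in mild Px and 9.2 of 12.4 CPM in Sham. The sum is therefore not read as a measure of lymphocytes. The 19 complement genes were all higher, and C1s, a protease of the classical pathway, rose by 4.19. Of 28 genes of antigen presentation and the interferon response 27 were higher. The class II gene RT1-Da stood at 420, 1220, 291 and 369 CPM against 24.1 to 36.2 CPM (4.24 ± 0.39), with mild Px 8 the highest. Without mild Px 8 the 19 macrophage markers and 27 of 28 presentation genes were again higher, and 1 of the 28 was lower.

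Of 20 inflammatory signalling genes 18 were higher and 1 lower. Vcam1, the adhesion molecule that holds leukocytes, rose by 5.13, from 0.79 to 2.63 CPM in Sham to 31.9 to 92.7 CPM, and Il33, an alarmin stored in nuclei, by 5.49, from 1.74 to 7.14 CPM to 89.4 to 262 CPM. Il1r1, the interleukin 1 receptor, was the lower one (-0.47, adjusted p = 0.0238) and lost its call within the first set (adjusted p = 0.0862). Genes of stellate cells, fibroblasts and smooth muscle rose in 23 of 23 cases (median 3.54). Fbn1, the microfibril protein fibrillin, stood at 472, 467, 690 and 389 CPM in mild Px and at 22.9, 48.8, 23.6, 32.0 and 34.4 CPM in Sham. All mild libraries exceeded all Sham libraries many times (3.96 ± 0.25, adjusted p = 3.4e-06). Col6a1, a collagen VI chain, rose by 3.86, and Lox, which cross-links collagen, by 3.58. The summed share of this list was 0.542 to 1.19% in mild Px and 0.0767 to 0.157% in Sham.

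Exocrine and vascular markers were higher too. Of 32 acinar markers 31 were higher (median 2.58). Reg1a, a secreted protein of acinar cells, stood at 2840 to 5180 CPM against 20.8 to 388 CPM, and Rbpjl, which drives acinar gene transcription, at 74.4 to 142 against 2.01 to 13.8 CPM. Of 18 duct markers 14 were higher. Anxa2, an annexin of epithelia, rose by 3.91 and Car2, carbonic anhydrase 2, by 2.02. Of 16 endothelial markers 11 were higher and 1 lower (7 and 2 under library totals): Cdh5 and Tek, an adhesion molecule and a receptor of vessel cells, rose by 1.11 and 1.03, and Ece1, which activates endothelin, fell by 0.71. The summed endothelial share itself overlapped, 0.0991 to 0.151% in mild Px and 0.123 to 0.156% in Sham. Among 8 Schwann cell and glia markers 5 were higher, with Erbb3 and Pmp22 up by 2.20 and 2.49, and 1 lower. These calls describe the tested genes alone. Over the 13 genes in the count table the summed share overlapped, 0.00561 to 0.0130% in mild Px and 0.00474 to 0.00675% in Sham. Their summed level did not (58.5 to 106.8 against 38.3 to 45.4 CPM). Of 7 erythroid, mast cell and adipocyte markers 6 were higher, among them Cpa3 and Fabp4, and Kit, made by mast cells and by beta cells, was lower (-0.55, adjusted p = 0.0034; adjusted p = 0.0501 within the first set). The summed share of this list overlapped too, 0.0130 to 0.0266% in mild Px and 0.0124 to 0.0177% in Sham. Its summed level did not (135.6 to 225.2 against 99.3 to 118.1 CPM).

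Transcripts encoded by mitochondrial DNA were lower in 11 of 13 cases (median -0.64). Nuclear genes of the respiratory chain were higher in 8 of 24 cases, near the 29.3% of all genes, and lower in 1. Mt-nd3, a subunit of complex I, stood at 154, 182, 122 and 154 CPM in mild Px and at 373, 287, 436, 353 and 403 CPM in Sham. No mild library approached Sham (-1.27 ± 0.15, adjusted p = 4.49e-05), and Mt-nd2 fell by 0.85. Under scaling by granule genes the mitochondrial list had a median of 0.02 with 1 of 13 lower, and in the nuclear list 23 of 24 were higher. Under library totals the median of the nuclear list changed sign (-0.05, with 7 lower and 1 higher). Ndufb3 and Cycs, a complex I subunit and cytochrome c, rose by 1.21 and 0.72. In the citrate cycle 5 of 20 genes were higher, near the share of all genes, and 2 lower, a count that was 16 higher and none lower under scaling by granule genes and none higher and 9 lower under library totals. The higher genes included Sdha and Sdhb of succinate dehydrogenase (0.48 and 0.52), and the lower ones Pdhb of pyruvate dehydrogenase, without a call within the first set (-0.28, adjusted p = 0.0886). In glycolysis 11 of 24 were higher and 4 lower, which became 19 and 2 under scaling by granule genes and 9 and 7 under library totals. The falls included Pfkm, the muscle-type phosphofructokinase (-1.10), and Eno2, neuronal enolase (-1.45), forms prominent in endocrine cells.

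In cholesterol synthesis 9 of 23 were lower and 4 higher: Srebf2, the master regulator, fell by 0.69 and Sc5d, a desaturase, by 0.77, while Stard4, a sterol carrier, rose by 1.0 and Ebp, an isomerase, by 0.58. Under scaling by granule genes 11 were higher and none lower. Over all 14715 genes that scaling gave 8435 higher and 512 lower, and library totals gave 3040 higher and 6279 lower. In fatty acid metabolism 10 of 25 were higher and 9 lower, which became 15 and 1 under scaling by granule genes and 6 and 13 under library totals. Acly, which makes acetyl-CoA from citrate, fell from 1210 to 1560 CPM in Sham to 493 to 677 CPM (-1.18 ± 0.16). Fabp5, a fatty acid carrier of macrophages and epithelia, rose by 4.16, with mild Px 8 at 95.7 CPM, and Acadl, of mitochondrial oxidation, by 0.77.

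Of 24 genes of the unfolded protein response 3 were higher and 5 lower. Atf3, a stress-induced factor, stood at 14.8, 30.6, 12 and 37.4 CPM against 1.06 to 3.34 CPM (3.52 ± 0.39), and Edem1, which sends misfolded proteins to degradation, rose by 0.95. Ern1, the sensor IRE1, fell by 0.95 and Ero1a, an oxidase of the endoplasmic reticulum, by 0.75. Scaling by granule genes gave 15 of the 24 higher and 1 lower, and library totals gave 2 higher and 16 lower (median -0.42). Over all 14715 genes, granule scaling gave 8435 higher and 512 lower, and library totals gave 3040 higher and 6279 lower. Of 24 antioxidant genes 15 were higher and 2 lower. Hmox1, heme oxygenase 1, stood at 66.2, 70.2, 52.1 and 18.2 CPM against 1.43 to 4.66 CPM, the lowest mild value in rat 11. Gpx1 rose by 2.73, with mild Px 8 at 138 CPM against 46.9 to 61.5 CPM in the other 3, and Gclm, of glutathione synthesis, fell by 0.87. Keap1, which restrains NRF2, was lower (-0.27, adjusted p = 0.0419), without a call within the first set (adjusted p = 0.333).

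Cell cycle genes were higher in 21 of 27 cases and lower in 1. Mki67, the proliferation marker, stood at 22.7, 41.3, 27.3 and 21.6 CPM in mild Px and at 5.18, 7.75, 5.40, 5.71 and 8.05 CPM in Sham. All mild libraries lay above all Sham libraries, with mild Px 8 the highest (2.14 ± 0.21, adjusted p = 1.67e-05). Top2a, of DNA untangling in mitosis, rose by 1.81. Ccnd2, the cyclin D of the beta cell, was the lower member (-0.92 ± 0.17). The cells in which the cycle genes were transcribed are not resolved by bulk RNA. Among inhibitors and senescence genes 9 of 17 were higher and 3 lower (14 and none under scaling by granule genes): Igfbp5, a binding protein of IGF, rose by 2.79, and Cdkn1b, the inhibitor p27, and Men1, menin, fell by 0.77 and 0.51, the latter without a call within the first set (adjusted p = 0.0647).

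In insulin and IGF signalling 8 of 23 were higher and 7 lower, near the shares of all genes, and the counts became 16 and 2 under scaling by granule genes and 6 and 11 under library totals. With TMM Igfbp4 rose by 1.55, and Igf1r, the IGF1 receptor, and Foxo1 fell by 1.20 and 1.11. Immediate early genes were higher in 13 of 19 cases and lower in 3, and the direction differed by gene: Jun rose by 2.13 and Egr2 was higher at 3.12 to 16.4 CPM against 0.12 to 0.46 CPM, whereas Nr4a1 and Npas4, induced by calcium entry in secretory cells and neurons, were lower. Npas4 stood at 0.05 to 0.22 CPM in mild Px and 0.88 to 2.07 CPM in Sham. Nr4a1 stood at 21.5, 31.3, 15 and 29.7 CPM against 52.1, 52.0, 74.5, 103 and 108 CPM, below every Sham library (-1.67 ± 0.27; -1.10 within the first set). In the TGF-beta and Notch list 15 of 25 were higher, with Jag1 and Notch2, ligand and receptor, up by 2.24 and 3.17, and 2 lower, Tgfb2 (-0.83) and Dll1 (-0.47), the latter lost within the first set (adjusted p = 0.149). Of 18 hypoxia genes 6 were higher and 4 lower, near the shares of all genes, and under scaling by granule genes 12 were higher and none lower. Of all 14715 genes 8435 were higher under granule scaling. Bnip3 and Ndrg1 fell by 0.85 and 0.77, and Angptl4 rose from at most 0.35 CPM in Sham to 4.48 to 16.8 CPM. Of 27 ribosomal protein genes 24 were higher (15 higher and 1 lower under library totals), with Rpl23 up by 2.15 and Rps24 by 1.54.

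**Figure D4:**
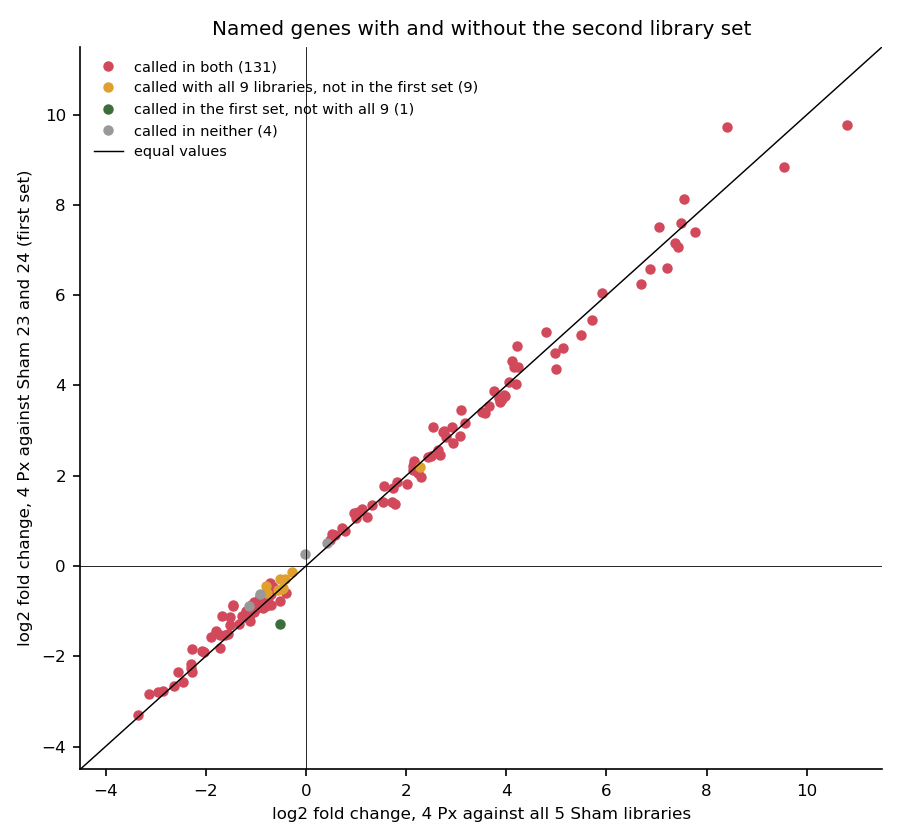
Each point is 1 gene named for the comparison with Sham; the horizontal axis gives its log2 fold change in mild Px against all 5 Sham libraries and the vertical axis the same against Sham 23 and 24 of the first library set, with the line of equal values. Most points lie near the line, Gcg changes sign, and Gipr (green) gains a call as its log2 fold change moves from -0.51 to -1.28.

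The mild group was then set beside the Px rats of lower and higher glucose, in 1 model of all 15 libraries. Against near-normal Px no gene of 15661 passed (0%), and 834 had an unadjusted p under 0.05. DESeq2 and limma voom also called 0. The mild and near-normal libraries differed by a log2 fold change of -0.10 ± 0.15 in Nkx6-1, -0.30 ± 0.17 in Ucn3, -0.34 ± 0.14 in Pdx1, 0.28 ± 0.46 in Txnip and -0.07 ± 0.30 in Aldh1a3. Without near-normal Px 2, the library of this group in the first set, 2 genes were lower, and the comparison then lies between the sets. A p above the threshold does not show that the groups were alike.

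Against severe Px, 998 genes passed (6.37%): 417 higher in mild Px (2.66%) and 581 lower (3.71%). This comparison lies wholly between the 2 library sets, and with the set as a covariate, which rests on the Sham and near-normal libraries, 34 genes passed, 28 of them among the 998. It also moved with single libraries: without severe Px 13, 15 or 19 the count was 296, 355 or 512, and without mild Px 4 or 10 it was 647 or 637. Of the genes named by smallest p, those that passed both ways are described first. Nell2, a secreted neural protein (chromosome 7, 136526496 to 136853957, count table positions), stood at 8.08, 3.99, 6.80 and 7.43 CPM in mild Px and at 40.4, 40.4 and 39.4 CPM in severe Px. In Sham it stood at 14.2 to 21.9 CPM, between the 2. The difference between mild and severe Px was -2.61 ± 0.21 (adjusted p = 2.59e-05) and -2.18 ± 0.23 with the set (adjusted p = 0.0029).

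Several further genes were low in mild Px, near or below their Sham level, and high in severe Px. Serpina6, the corticosteroid-binding globulin, stood at 3.21, 3.34, 4.44 and 5.24 CPM in mild Px, 29.1, 19.8 and 30.8 CPM in severe Px and 4.76 to 8.25 CPM in Sham (-2.71; -1.93 with the set, adjusted p = 0.0406). Ppcdc, of coenzyme A synthesis, stood at 1.89 to 2.86 CPM against 13.4, 60.1 and 23.3 CPM (-3.69; -3.47, adjusted p = 0.0335). Enpep, an aminopeptidase that cleaves angiotensin, stood at 21.6 to 37.7 against 66.5 to 103 CPM (-1.49; -1.45, adjusted p = 0.0304). In all 3 the mild and severe libraries did not overlap, and the near-normal libraries too lay below all severe ones. Mid1ip1, a regulator of lipid synthesis, Emb, an escort of monocarboxylate carriers, Frzb, a WNT antagonist, and Shc2, a signalling adaptor, were lower in mild than in severe Px by 1.17, 1.17, 1.45 and 1.61, and each passed with the set (adjusted p = 0.0204, 0.0218, 0.0294 and 0.0252). In the other direction Plxdc1, Slit1, an axon guidance ligand, and Wdfy2, an endosomal protein, were higher in mild Px by 1.10, 1.11 and 0.54, and these passed with the set too (adjusted p = 0.0209, 0.0437 and 0.0406). Plxdc1 and Slit1 were lower in mild Px than in Sham (-1.19 and -1.63).

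**Figure D5:**
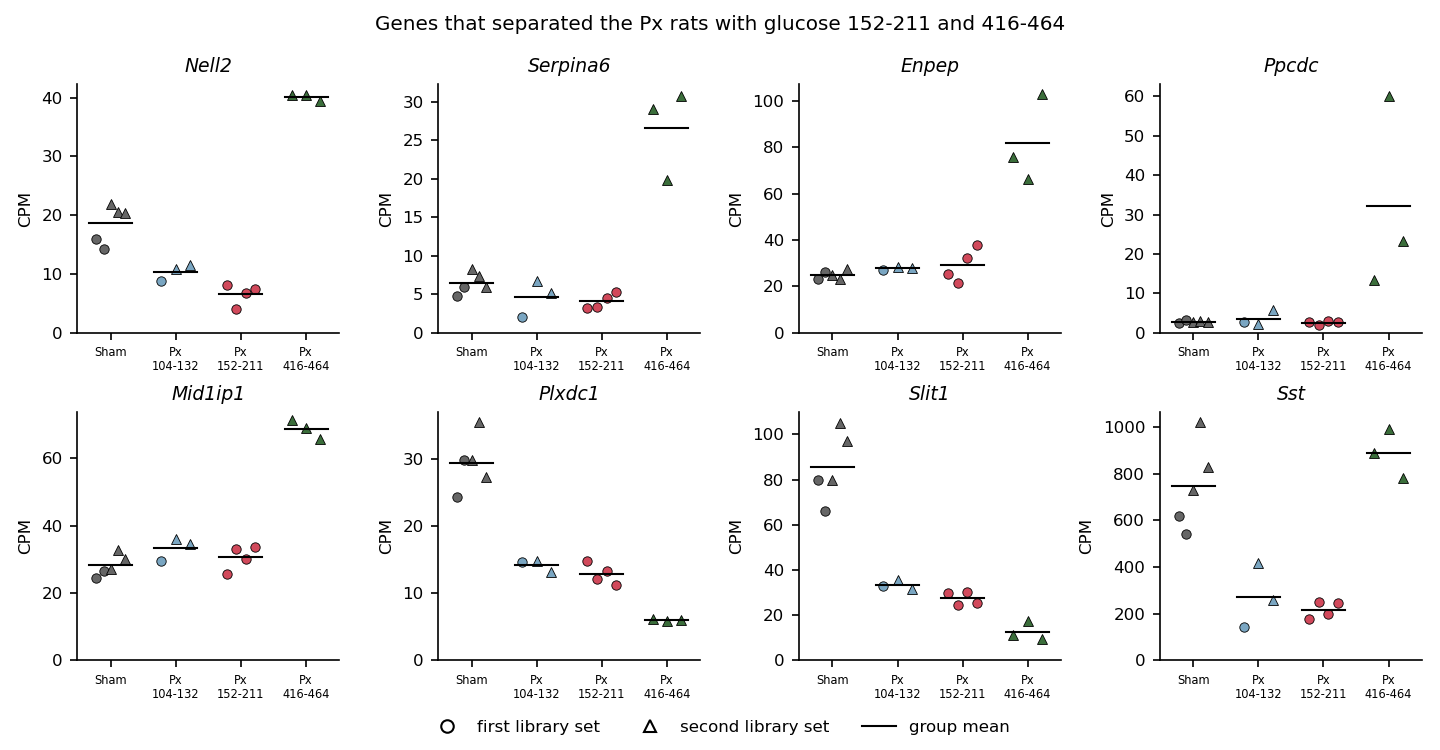
Each panel gives the CPM of 1 gene in every library (points) with group means (lines), for Sham and the Px groups by glucose; circles are the first library set and triangles the second. In Nell2, Serpina6, Enpep, Ppcdc and Mid1ip1 the 3 severe libraries stand above all others, also above the second-set Sham and near-normal libraries; in Plxdc1 and Slit1 they stand below all others; in Sst they lie with Sham.

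Other differences between mild and severe Px were not called with the set as a covariate. Sst was lower in mild Px by 2.03 on the log2 scale (adjusted p = 0.0014), and by 1.24 with the set (adjusted p = 0.0957). It stood at 890, 994 and 783 CPM in severe Px, within the Sham range, and at 144 to 416 CPM in near-normal Px. Between the mild and severe libraries alone, glucose and library set cannot be told apart for Sst and the genes that follow. Near-normal Px 14 and 16 lie in the second set with severe Px, and their Sst was below that of every severe library. In Sham, every library of the second set held more Sst than those of the first set. Neither pattern was tested. Top2a and Mki67 were higher in mild Px by 1.07 and 1.10 (adjusted p = 0.334 and 0.407 with the set), with 9 of 27 cell cycle genes higher in the first test. Fbn1, Col6a1, Lox, Vcam1, Il33, Anxa2, Ubd and Bcl2a1 were higher by 1.12 to 4.14, and Casr, Cabp7, Mt-nd3 and Pdhb lower by 0.70 to 1.27, none with a call once the set was a covariate. Megf11, Hivep3, Pcdh9, Dnah11 and Cdc25b, named for their small p, were higher by 0.79 to 1.25 and likewise not called. Gipr changed sign between the 2 fits, from 1.21 (adjusted p = 0.125) to -0.42 (adjusted p = 0.351), with no call in either. Glp1r and P2ry1 were higher in mild than in severe Px by 0.46 and 0.68, without a call with the set (adjusted p = 0.228 and 0.307).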

How the data were processed

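Poly(A) RNA of rat islets was sequenced in 15 libraries from a directional kit. The authors deposited raw read counts for 28914 genes. The submitters' processing notes name FastQC, Subread, featureCounts and limma. Genome build, annotation and strand setting are not given in the sources used for this work, so overlapping and antisense genes may share reads. The gene lengths that the authors deposited were not used in a test, and the authors' deposited table of fold changes, a comparison of all Px with Sham on the log2 scale, was not used.

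Counts of the 4 mild Px and 5 Sham libraries were fitted with edgeR 4.0.16 (R 4.3.3) by the quasi-likelihood test, after filterByExpr (minimum count 10, minimum total 15) and TMM normalisation, with Benjamini-Hochberg adjustment over all genes tested and a threshold of 0.05. The comparisons among Px groups came from 1 fit of all 15 libraries in 4 groups. Levels are CPM on TMM library sizes over the 15 libraries. The precision follows from library totals of 12205650 to 30589667 counts in the 9 libraries, and SE is that of the log2 fold change. On simulated data, the test of mild Px against Sham recovered 86% of 2-fold and 20% of 1.5-fold changes, with 9 false calls among 14715 genes. The simulation gave every gene the same dispersion of 0.05 and changed 50 genes at each fold, with equal means elsewhere. In the data 8357 genes differed and the spread varied by gene, so these rates need not hold for the comparison itself.

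The glucose in the titles defines the mild group. The choice to describe this group, the 39 gene lists and the named genes was made with earlier results of these data known. The named genes are a panel of islet genes, the 12 largest rises and the 12 largest falls among genes with a mean of at least 5 CPM, up to 2 genes per list and direction by smallest p, up to 8 genes per direction within Px, and the 6 genes of largest spread in mild Px. Some genes that these rules select are not reported here. Snhg11, Leng8, Pnisr, Pnn and Srsf5 were chosen after their values were seen. Alternatives were other scalings (DESeq2 size factors, library totals, 8 granule genes, TMM without acinar genes), other filters, DESeq2 1.42.0, limma 3.58.1 voom, thinned counts and each library left out. The library set as a restriction or covariate was added after seeing the data.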

Additional observations from a re-analysis of the deposited data

Results flagged for a closer look

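Some libraries stood apart from the rest of their group by the size of the gap to the nearest library, a measure by which chance marks about 1 in 20 groups. It was taken in mild Px and in Sham for every named gene, 145 of which were named against Sham. Many marks of this kind are thus due by chance alone, and no single mark is read as a result. In mild Px 8 this held for Ldha (104 CPM), Lyc2 (90.5 CPM), Mmp12 (367 CPM), Col6a5 (77.3 CPM), Trpm2 (32.7 CPM), Cd4 (121 CPM), RT1-Da (1220 CPM), Gpx1 (138 CPM), Fabp5 (95.7 CPM), Angptl4 (16.8 CPM) and Wdfy2 (64.0 CPM), each the highest of its group. The same library had the highest share of macrophage marker counts. In mild Px 11 Ins1 was the lowest (21800 CPM). Among Sham libraries the highest values that stood apart were Slc2a2 (2100 CPM), Npas4 (2.07 CPM) and Pcdh9 (72.7 CPM) in Sham 27, Bcl2a1 (0.506 CPM) and Lox (11.9 CPM) in Sham 24, Acod1 (0.0529 CPM) in Sham 23 and Cpa3 (0.615 CPM) in Sham 25.

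Differences between mild and severe Px were tested within the model of all 15 libraries (edgeR quasi-likelihood test, adjusted p under 0.05), and all lie between the 2 library sets. Log2 fold changes were positive, higher in mild Px, for Glp1r (0.457), Ubd (4.14), Bcl2a1 (2.27), P2ry1 (0.676), Tnfrsf11b (0.912), Anxa2 (1.28), Fbn1 (1.55), Col6a1 (1.12), Vcam1 (1.95), Il33 (1.51), Top2a (1.07), Mki67 (1.10), Lox (1.58), Plxdc1 (1.10), Megf11 (1.25), Hivep3 (0.792), Pcdh9 (1.14), Dnah11 (1.09), Wdfy2 (0.544), Slit1 (1.11) and Cdc25b (0.852). They were negative for Sst (-2.03), Cabp7 (-1.27), Casr (-0.985), Pdhb (-0.701), Mt-nd3 (-1.05), Nell2 (-2.61), Mid1ip1 (-1.17), Emb (-1.17), Frzb (-1.45), Shc2 (-1.61), Ppcdc (-3.69), Enpep (-1.49) and Serpina6 (-2.71).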

How the results depend on the processing

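No paired analysis was possible because the groups share no replicate numbers. Leaving out 1 library at a time, mild Px against Sham gave 7678 to 8389 genes changed, 3974 to 4389 higher and 3658 to 4000 lower. An absolute log2 fold change of at least 1 left 3637 genes, 696 of them lower. Scaling by library totals gave 6279 lower, and scaling by 8 granule genes 8435 higher and 512 lower. Under granule scaling the sign changed for Gcg (0.604), Gipr (0.0668), Pklr (0.102), Dnmt3a (0.247), Bhlhe41 (0.0128), Kit (0.115), Il1r1 (0.162), Keap1 (0.413), Pdhb (0.254), Men1 (0.165) and Dll1 (0.18). Gipr also changed sign with limma voom sample weights (0.0201). Gcg changed sign without mild Px 4 (0.195), mild Px 8 (0.0755), Sham 26 (0.0367) or Sham 27 (0.0128), with a range of -0.363 to 0.195 when 1 library was left out, in the first library set (0.256) and with the set as a covariate over 9 (0.222) or 15 libraries (0.168). Of 145 genes named against Sham, 131 were called both with 9 libraries and in the first set, 9 with 9 libraries alone, 1 in the first set alone and 4 in neither.

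Against near-normal Px, leaving out 1 library gave 0 to 2 genes changed, 0 to 2 lower and 0 higher. Against severe Px the counts of genes changed, higher and lower moved to 372, 165 and 207 (absolute log2 fold change of at least 1), 6906, 6807 and 99 (library totals), 348, 222 and 126 (granule genes), 2000, 905 and 1095 (voom with sample weights) and 34, 9 and 25 (library set as a covariate). DESeq2 gave 1762 changed and 921 higher, and counts thinned to the lowest total gave 658 and 254. Leaving out 1 library gave 296 to 1033 changed, 43 to 450 higher and 253 to 583 lower. The cause of these shifts was not tested. Depth limits the precision of fold changes of genes read at a few counts in Sham.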
